A study of Mus musculus with 6 samples.

Results

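The genes described here were 38 genes of transforming growth factor β (TGF-β), activin and bone morphogenetic protein (BMP) signaling, listed by name for their roles in the pathway, with no threshold on measured values, although earlier results of these data were known when the list was made. They comprised 20 genes of the TGF-β and activin arm, 16 genes of the BMP arm and 2 Smad genes shared by both. Of the 38 genes, 37 had a row among the 31130 genes of the deposited tables, with Ctgf listed under its newer symbol Ccn2, and the level of Fstl3 was not analysed here, although its promoter was counted. RNA was measured in tumor tissue of wild-type female C57BL/6 mice aged 6 to 8 weeks, with 3 tumors in each of 2 groups. In both groups, 500000 cells of Lewis lung carcinoma (LLC), a mouse lung cancer line that carried an enhanced green fluorescent protein, were injected with basement membrane extract into the left lung on day 14, and tumor tissue was taken on day 21. The LC mice (lung cancer alone) received no bleomycin, and the methods name no vehicle for them. The IP + LC mice (lung cancer with interstitial pneumonia) received bleomycin, an antitumor drug that scars the lungs of mice, at 2 mg/kg by oropharyngeal aspiration on day 0. The comparison of IP + LC with LC therefore asks how the tumor tissue differs when the tumor grows in a lung with pneumonitis and fibrosis. All 6 tumors came from 1 cell line, and healthy lung and bleomycin alone were not analysed here.

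Ligands of this family bind pairs of type I and type II receptor kinases, which phosphorylate receptor Smads. These join Smad4, enter the nucleus and change transcription. TGF-β and activin act mainly through Smad2 and Smad3, and BMPs through Smad1 and Smad5. TGF-β is stored in the matrix in a latent form held by latency proteins, whereas BMPs and activins are held in check by secreted antagonists. In the lung, TGF-β is best known as a driver of fibrosis, and the BMP receptors Acvrl1 and Bmpr2 and the coreceptor Eng are best known from the vascular endothelium, where the Id genes and Smad6 are direct targets of BMP signaling.

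The libraries held 592733, 1379759 and 1356381 unique molecular identifiers (UMIs, each standing for 1 captured transcript molecule) in LC replicates 1, 2 and 3, and 1336919 to 1631066 in the IP + LC tumors. Levels below are UMIs of a gene per 1000000 UMIs of the tumor (CPM) after scaling by the trimmed mean of M values (TMM), which absorbs differences in depth but not the larger counting error of LC replicate 1. LC replicate 1 stood apart, with Pearson r of 0.84 and 0.80 to the other LC tumors across the tested genes, against 0.96 between those and 0.97 between IP + LC tumors. Its summed macrophage markers, at 1212 CPM against 396 and 472 CPM in the other LC tumors, were near those of IP + LC, and its proliferation markers, at 409 CPM, lay between the other LC tumors, at 87.2 and 88.7 CPM, and IP + LC, at 762 to 910.0 CPM. Although the labels give the cell type as lung cancer cells, the tissue held host lung. The summed alveolar and airway epithelium markers stood at 69880 to 75300 CPM in LC and 8047 to 14130 CPM in IP + LC. The labels do not say whether the tumors of a group came from separate animals. The p-values set each group difference against the variation between these tumors and take the tumors as independent.

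A gene was called where the adjusted p of edgeR's quasi-likelihood test, over the 11240 genes tested, was below 0.1. Of the 35 members tested, 4 were called higher and 12 were called lower in IP + LC, where 16.8% of all tested genes were called higher and 19.6% were called lower. In the BMP arm, 11 of 14 tested genes were called, 2 higher and 9 lower, and the median log2 fold change was -1.04. In the TGF-β and activin arm, 5 of 19 tested genes were called, 2 higher and 3 lower, and the median log2 fold change was -0.11. The median over all tested genes was 0.02. With scaling by library size alone, the median of the TGF-β and activin arm turned to 0.052 and that of all tested genes to 0.18. Without LC replicate 1, 8 members were called higher and 17 lower, against 28.3% and 28.7% across the whole table. The IP + LC tumors lay all above the LC tumors for 8 members and all below them for 14, and for all tested genes these shares were 21.9% and 21.2%. Centred per gene on the log2 scale, the BMP arm had medians of 0.15, 0.67 and 0.49 in the LC tumors and of -0.38, -0.56 and -0.35 in the IP + LC tumors. For the TGF-β and activin arm these medians were -0.08, 0.11 and 0.15 in LC and 0.09, 0.06 and 0.12 in IP + LC, so the groups overlapped. These are descriptions of the arms, and the difference between the arms was not tested.

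**Figure D1:**
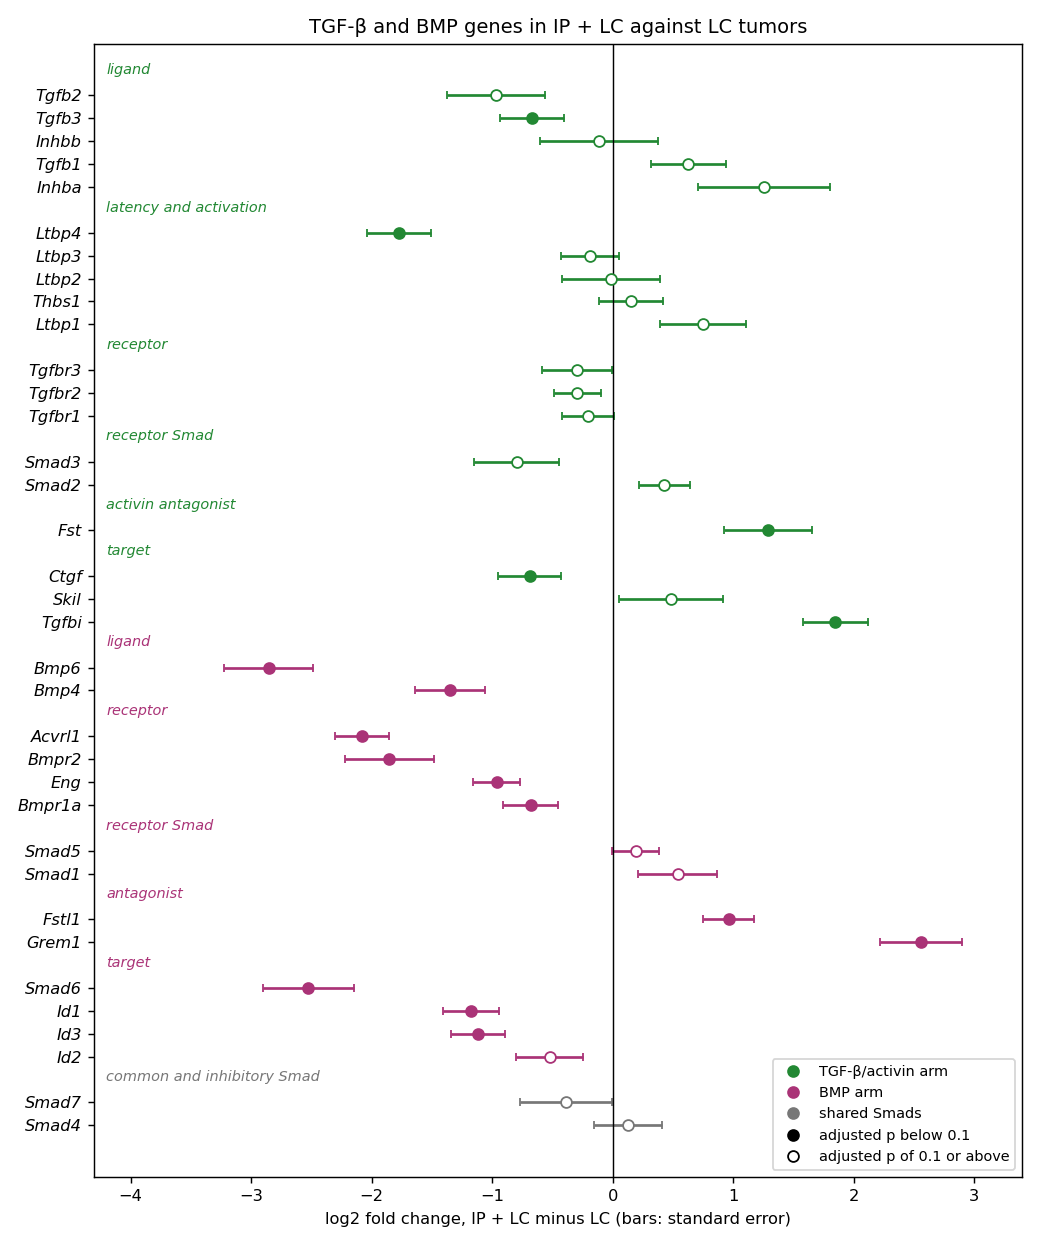
Fitted log2 fold change (x axis, IP + LC minus LC) of each of the 35 tested members (y axis), grouped by role within the TGF-β and activin arm (green), the BMP arm (magenta) and the shared Smads (grey). Bars are standard errors and filled points have an adjusted p below 0.1. Most BMP ligands, receptors and targets lie left of 0, from -2.85 for Bmp6, and the antagonists Grem1 and Fstl1 lie right of it.

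The 250 bases before the start of 4 members are shown as examples of members that were called, with a receptor, a target and a ligand that fell and an antagonist that rose, although Nbl1, another BMP antagonist, fell. The sequences were read from RefSeq on GRCm38.p6 and are written from 5′ to 3′ on the strand of the gene. Capitals mark GGCGCC, an element bound by BMP Smads that reads the same on both strands, and CAGAC with its reverse complement GTCTG, an element bound by Smad3 and Smad4. Eng lies at chr2:32646345-32646594 (+ strand), Smad6 at chr9:64022060-64022309 (- strand), Bmp4 at chr14:46390670-46390919 (- strand) and Grem1 at chr2:113758649-113758898 (- strand).
Eng: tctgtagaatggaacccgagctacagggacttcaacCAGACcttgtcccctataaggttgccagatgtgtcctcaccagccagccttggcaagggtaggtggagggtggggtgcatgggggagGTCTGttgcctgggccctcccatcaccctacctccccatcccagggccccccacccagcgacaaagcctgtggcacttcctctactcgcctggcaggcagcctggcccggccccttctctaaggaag
Smad6: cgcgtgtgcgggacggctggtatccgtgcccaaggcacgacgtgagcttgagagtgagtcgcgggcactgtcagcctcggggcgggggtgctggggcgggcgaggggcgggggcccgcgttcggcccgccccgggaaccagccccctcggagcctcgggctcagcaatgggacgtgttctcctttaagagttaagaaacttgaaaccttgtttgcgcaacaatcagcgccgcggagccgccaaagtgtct
Bmp4: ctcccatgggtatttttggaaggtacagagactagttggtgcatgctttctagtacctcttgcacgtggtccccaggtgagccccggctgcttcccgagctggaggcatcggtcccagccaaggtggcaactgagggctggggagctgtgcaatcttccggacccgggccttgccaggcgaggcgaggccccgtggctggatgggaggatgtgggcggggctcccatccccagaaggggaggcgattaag
Grem1: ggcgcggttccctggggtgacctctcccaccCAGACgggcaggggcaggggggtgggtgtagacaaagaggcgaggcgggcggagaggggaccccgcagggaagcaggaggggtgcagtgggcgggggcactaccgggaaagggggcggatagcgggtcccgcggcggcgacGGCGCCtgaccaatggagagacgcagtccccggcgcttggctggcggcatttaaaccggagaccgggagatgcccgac
The Eng stretch held CAGAC or GTCTG 2 times, the Grem1 stretch held each element 1 time, and the Smad6 and Bmp4 stretches held no match. The matches in 1 stretch did not overlap. Among the 26 members with an entry, 8 held GGCGCC and 14 held CAGAC or GTCTG in at least 1 stretch. Over all 32851 stretches of this length, 9.59% held GGCGCC and 42.2% held CAGAC or GTCTG, counted per stretch and not per gene. A match is a description of these letters and was not tested for binding.

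The 4 BMP receptor genes among the members fell in IP + LC, and the call of Bmpr1a depended on the scaling. Acvrl1 (chr15:101128522-101145336, + strand), the endothelial type I receptor for BMP9 and BMP10, stood at 248, 376 and 309 CPM in the LC tumors and at 77.0, 70.5 and 75.6 CPM in the IP + LC tumors. The groups did not overlap, and the level was 4.23-fold lower in IP + LC (log2 fold change -2.08 ± 0.22 SE, edgeR adjusted p = 0.000859, n = 3 per group). Bmpr2 (chr1:59763400-59879014, + strand), the type II receptor that partners it, had 149, 356 and 452 CPM in LC and 96.2, 77.9 and 96.3 CPM in IP + LC. LC replicate 1 was the lowest of the LC tumors and still lay above every IP + LC tumor (log2 fold change -1.85 ± 0.37, edgeR adjusted p = 0.00764). Eng (chr2:32646595-32682669, + strand), endoglin, the coreceptor of this pair, had 216, 234 and 187 CPM in LC and 98.3, 121 and 109 CPM in IP + LC. It was 1.95-fold lower, with no overlap (log2 fold change -0.96 ± 0.20, edgeR adjusted p = 0.0082). Bmpr1a (chr14:34410734-34503341, - strand), a type I receptor found in many cell types, stood at 57.7, 69.6 and 57.0 CPM in LC and at 37.1, 31.5 and 48.5 CPM in IP + LC. The groups did not overlap, but its change was small (log2 fold change -0.68 ± 0.23, edgeR adjusted p = 0.0545). The Bmpr1a call was lost when LC replicate 2 (adjusted p = 0.19) or 1 of the IP + LC tumors, replicate 1 (adjusted p = 0.186) or replicate 2 (adjusted p = 0.243), was left out. It was also lost with scaling by library size alone (adjusted p = 0.119), with no filter on low counts (adjusted p = 0.192), with the replicate number as a block (adjusted p = 0.109) and after thinning all libraries to the smallest (log2 fold change -0.37, adjusted p = 0.539). Acvr1, a BMP type I receptor on the list of other pathway genes and named after its values were seen, had 15.3, 13.8 and 15.5 CPM in LC and 27.8, 26.4 and 17.1 CPM in IP + LC. All IP + LC tumors lay above LC, but Acvr1 was not called (log2 fold change 0.67, 95% confidence interval 0.02 to 1.33, edgeR adjusted p = 0.114).

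Both tested BMP ligands fell. Bmp6 (chr13:38345107-38500302, + strand), a BMP made among others by endothelial cells and a regulator of iron metabolism, had 35.6, 43.6 and 35.8 CPM in LC and 9.26, 3.44 and 3.57 CPM in IP + LC. This was a 7.23-fold lower level, the largest decrease among the tested members (log2 fold change -2.85 ± 0.37, edgeR adjusted p = 0.00138), and rested on 5 to 13 UMIs per IP + LC tumor. Of the exonic length of Bmp6, 5.74% is overlapped by the antisense gene Txndc5, whose level was not called (log2 fold change 0.45, edgeR adjusted p = 0.117), and whether counting used the strand is not given in the sources used here. Bmp4 (chr14:46383520-46390669, - strand), a ligand of lung development and vessels, had 27.2, 45.1 and 48.9 CPM in LC and 20.7, 16.0 and 12.8 CPM in IP + LC. The groups did not overlap (log2 fold change -1.35 ± 0.29, edgeR adjusted p = 0.0101), and the call was lost when all libraries were thinned to the smallest (log2 fold change -0.93, adjusted p = 0.212). The other ligands, Bmp2 and Bmp5, were too low to be tested. Bmp2 had 0, 6 and 7 UMIs in LC and 14, 15 and 5 UMIs in IP + LC, and Bmp5 had 1, 8 and 10 UMIs in LC and 3, 0 and 4 UMIs in IP + LC. For both, the groups overlapped in CPM. Of the exonic length of Bmp5, 46.7% is overlapped by the gene Gm26903, which had at most 2 UMIs in a tumor.

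Both antagonists among the BMP arm members rose, whereas of 3 tested antagonists on the list of other pathway genes Nbl1 (log2 fold change -1.75) and Twsg1 (-0.63) were called lower and Bmper was not called. The call of Twsg1 was lost in 10 of 16 alternatives, among them library size alone (adjusted p = 0.14), no filter on low counts (adjusted p = 0.253), the replicate block (adjusted p = 0.113), thinning (adjusted p = 0.193) and 5 of the 6 fits with a tumor left out. Grem1 (chr2:113746164-113758646, - strand), a secreted protein that binds BMP2 and BMP4, had 5.09, 3.06 and 4.07 CPM in LC and 20.7, 24.6 and 25.0 CPM in IP + LC. This was 5.88-fold higher in IP + LC (log2 fold change 2.56 ± 0.34, edgeR adjusted p = 0.00146). Thinned to the smallest library in 1 random draw, the log2 fold change of Grem1 was 1.46 (adjusted p = 0.0974), below the 1.72 of Tgfbi. The LC values rested on 3, 4 and 5 UMIs and the IP + LC values on 29, 43 and 35 UMIs, and 4.07% of the longest Grem1 transcript is near-identical to other genes. Fstl1 (chr16:37776873-37836514, + strand), a secreted glycoprotein of mesenchymal cells that binds BMP4, had 114, 169 and 147 CPM in LC and 258, 296 and 295 CPM in IP + LC. The lowest IP + LC tumor stood above the highest LC tumor (log2 fold change 0.96 ± 0.22, edgeR adjusted p = 0.012).

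Of the 4 BMP targets, 3 fell. Smad6 (chr9:63953076-64022059, - strand), an inhibitory Smad that BMP signals induce, had 57.7, 145 and 119.7 CPM in LC and 20.7, 12.6 and 25.0 CPM in IP + LC. LC replicate 1 was again the lowest LC tumor, and the groups did not overlap (log2 fold change -2.52 ± 0.38, edgeR adjusted p = 0.00235). Id1 (chr2:152736251-152737410, + strand), an inhibitor of basic helix-loop-helix factors, had 119, 176 and 136 CPM in LC and 75.5, 63.6 and 54.2 CPM in IP + LC. Its level was 2.26-fold lower (log2 fold change -1.18 ± 0.23, edgeR adjusted p = 0.00697). Id3 (chr4:136143497-136145755, + strand), a close relative of Id1, had 248, 306 and 257 CPM in LC and 118, 105 and 155 CPM in IP + LC. It was 2.17-fold lower, with no overlap (log2 fold change -1.12 ± 0.22, edgeR adjusted p = 0.00713). Id2, which many other signals also induce, did not pass the test (log2 fold change -0.52, edgeR adjusted p = 0.196). LC replicate 1, at 124 CPM against 228 and 251 CPM in the other LC tumors, lay within the IP + LC range of 123 to 158 CPM. Without it Id2 was called lower (log2 fold change -0.76, adjusted p = 0.000521), but not with any other tumor left out. The receptor Smads of this arm were not called. Smad1 was at 10.2 to 34.4 CPM in LC and 39.0 to 41.3 CPM in IP + LC (edgeR adjusted p = 0.249), and Smad5 at 39.0 to 42.8 and 42.8 to 49.2 CPM (edgeR adjusted p = 0.495).

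**Figure D2:**
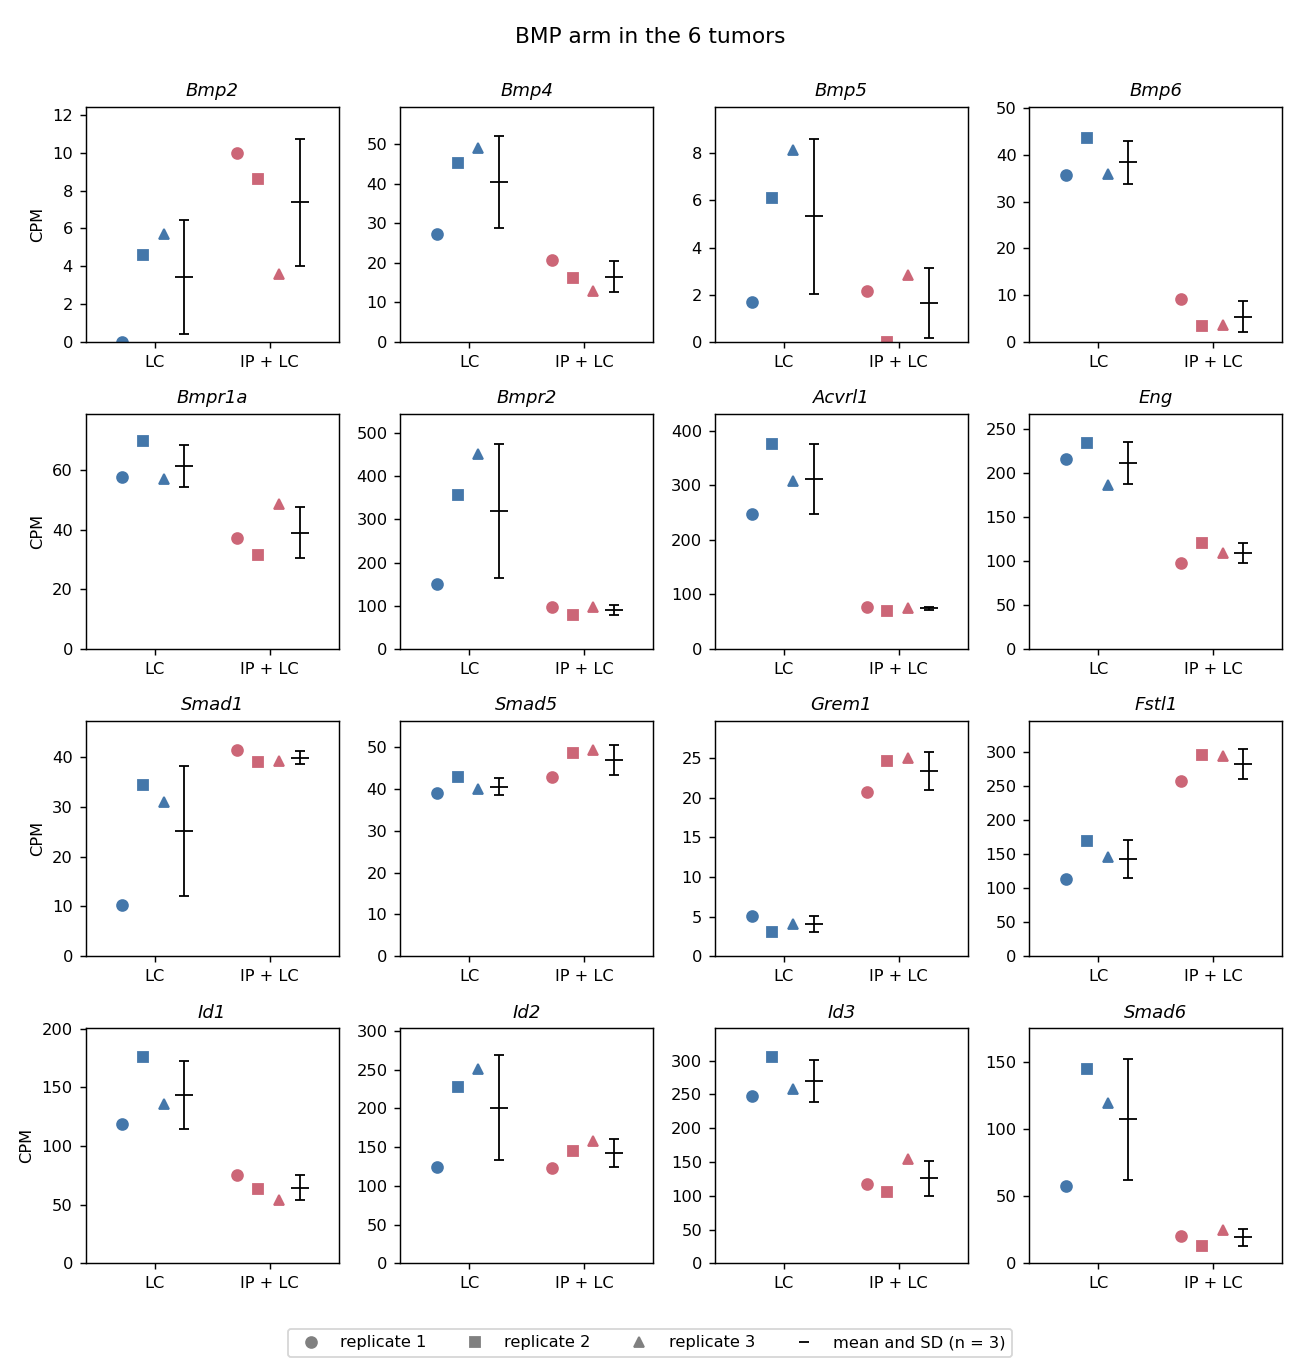
Level of the 16 BMP arm genes (y axis, CPM, linear from 0) in the 3 LC (blue) and 3 IP + LC (red) tumors, with marker shape for the replicate and the mean and SD beside each group. The IP + LC tumors sit below the LC tumors for Bmp4, Bmp6, all 4 receptors, Smad6, Id1 and Id3, and above them for Grem1, Fstl1 and Smad1.

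Markers of endothelium moved with these genes. All 12 endothelial markers, from Pecam1 and Cdh5 to Vwf, were called lower in IP + LC, and their sum was 1995, 3302 and 2844 CPM in LC and 720.4, 608 and 787 CPM in IP + LC, a 3.85-fold lower level. None of these markers was at 0 in all tumors. In bulk tissue, fewer cells of a type and less RNA per cell cannot be told apart. Members were therefore also given per 100 UMIs of the 12 markers. Acvrl1 then stood at 11.6 ± 0.79 (SD, n = 3) in LC and 10.6 ± 1.00 in IP + LC, and the groups overlapped. Bmpr2 stood at 11.4 ± 4.2 and 12.8 ± 0.56, also overlapping. Smad6 at 3.83 ± 0.82 and 2.70 ± 0.57, Bmp6 at 1.46 ± 0.29 and 0.77 ± 0.45, and Bmp4 at 1.48 ± 0.21 and 2.38 ± 0.66 overlapped as well. Per endothelial marker UMI, therefore, none of the 9 BMP arm genes called lower was below LC in every IP + LC tumor, with 5 of them overlapping and 4 of them above. The 4 above were Eng, at 8.15 ± 2.3 in LC and 15.8 ± 3.5 in IP + LC, Id1, at 5.35 ± 0.58 and 9.28 ± 2.1, Id3, at 10.2 ± 1.9 and 17.8 ± 1.7, and Bmpr1a, at 2.33 ± 0.48 and 5.50 ± 0.58. The divisor itself was lower in IP + LC, and over all 37 members with a row 29 of these ratios were above in IP + LC and 8 overlapped. Over all 11240 tested genes, 87.1% of such ratios were above LC in every IP + LC tumor and 1.08% were below, so a ratio that is not below LC is what nearly every gene shows on this scale. The ratios are values with no test.

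**Figure D3:**
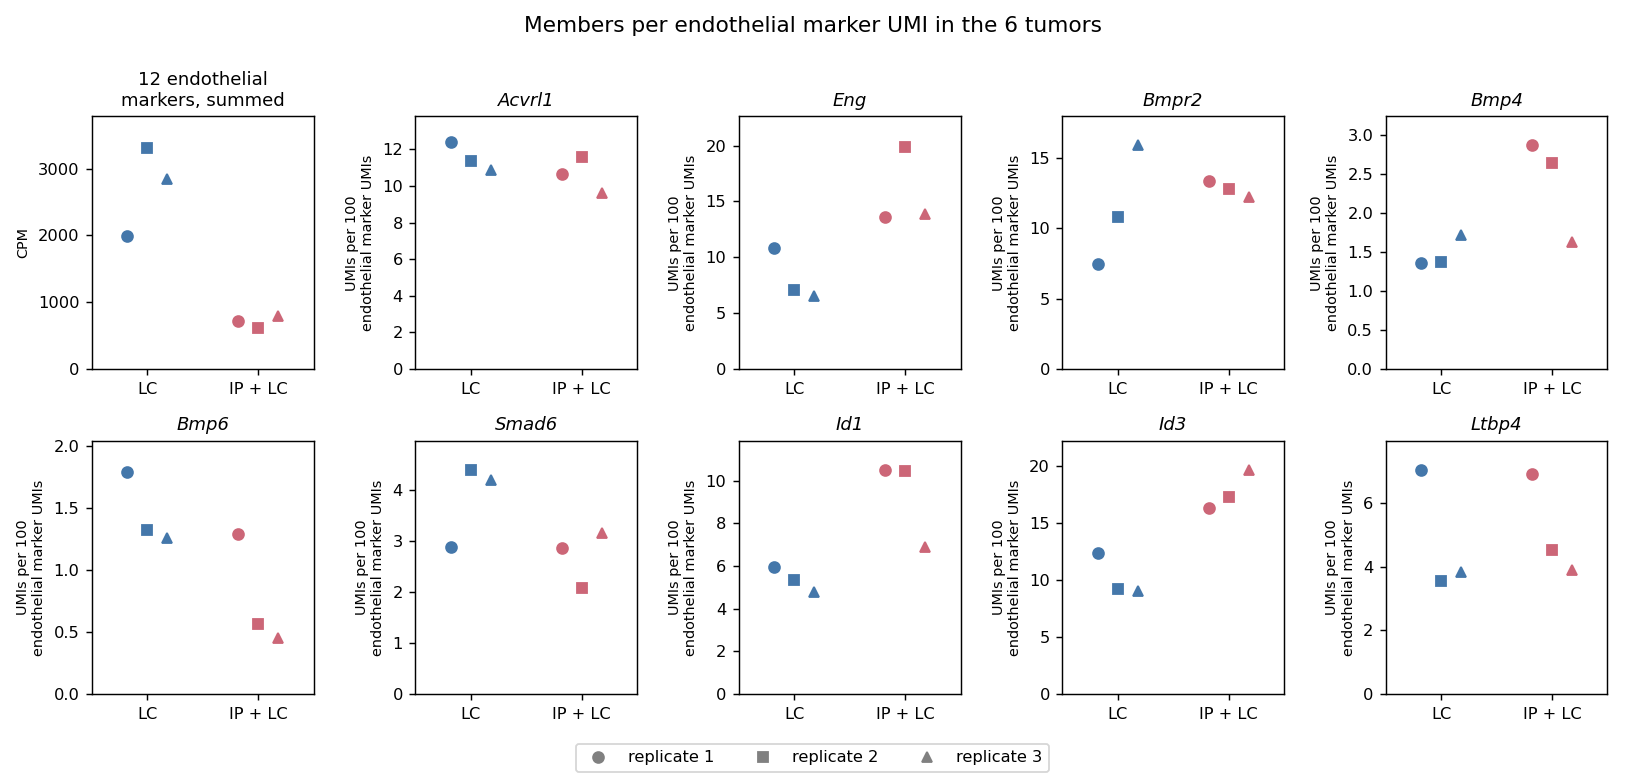
Sum of the 12 endothelial markers (upper left, CPM) and UMIs of 9 members per 100 UMIs of those markers (other panels, y axes from 0) in each of the 3 LC (blue) and 3 IP + LC (red) tumors. The sum is lower in every IP + LC tumor, Acvrl1 per marker UMI overlaps between the groups, and Eng, Id1 and Id3 per marker UMI are above in every IP + LC tumor.

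Markers of other cell types moved as well. Of the 10 fibroblast markers, 2 were called higher and 7 were called lower, and their sum was 1867 to 2329 CPM in LC and 1789 to 1876 CPM in IP + LC. The 2 called higher were the collagen genes Col1a1 (log2 fold change 1.42) and Col1a2 (0.67). Those called lower ran from Tcf21 (-2.28) to Mfap5 (-0.82), so the sum joins markers that rose and markers that fell. Per 100 fibroblast marker UMIs, Grem1 stood at 0.20 ± 0.071 in LC and 1.28 ± 0.16 in IP + LC, and Fstl1 at 6.80 ± 0.62 and 15.5 ± 1.5, so that the IP + LC tumors remained above the LC tumors. The fibroblast sum was 1.14-fold lower in IP + LC, so these ratios largely follow the levels. Over all 37 members with a row, 10 were above LC in every IP + LC tumor, 10 were below, namely Ltbp4 and the 9 BMP arm genes called lower, and 17 overlapped, where 27.8% of all tested genes were above and 16.2% below. The summed smooth muscle markers were 672 to 1072 CPM in LC and 211 to 296 CPM in IP + LC, with 5 of 5 tested markers called lower. The summed platelet markers, at 127 to 219 CPM in LC and 52.7 to 89.1 CPM in IP + LC, and the summed mesothelium markers, at 81.5 to 181 and 41.3 to 56.3 CPM, were also lower in every IP + LC tumor. The macrophage markers were at 396 to 1212 CPM in LC and 1233 to 1476 CPM in IP + LC, with 3 of 6 called higher, whereas all 5 alveolar macrophage markers were called lower, at 1498 to 1843 and 207 to 420.4 CPM. The part of these other cell types in the members' levels was not tested.

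In the TGF-β and activin arm, 1 of 5 ligand genes was called. Tgfb3 (chr12:86056745-86079041, - strand), a TGF-β isoform of mesenchymal tissue, had 33.9, 29.0 and 22.8 CPM in LC and 17.1, 14.9 and 21.4 CPM in IP + LC. The groups did not overlap, although LC replicate 3 and IP + LC replicate 3 lay close together (log2 fold change -0.67 ± 0.26, edgeR adjusted p = 0.0889). The call was lost when LC replicate 2 (adjusted p = 0.222) or any of the IP + LC tumors (adjusted p = 0.108 to 0.286) was left out, and with library size alone, no filter, DESeq2, the replicate block or thinning (adjusted p = 0.156 to 0.546). Tgfb1, the isoform best known from fibrosis and immune cells, had 49.2, 21.4 and 22.8 CPM in LC and 48.5, 46.4 and 40.7 CPM in IP + LC. LC replicate 1 lay just above the highest IP + LC tumor, and the test was not passed (log2 fold change 0.63, 95% confidence interval -0.07 to 1.33, edgeR adjusted p = 0.162). Without that tumor, where 28.3% of all tested genes were called higher, Tgfb1 was called higher (log2 fold change 1.02, adjusted p = 0.00113). With any other tumor left out it was not called (edgeR adjusted p = 0.225 to 0.472). Tgfb2, an isoform of epithelium and muscle, showed the opposite arrangement, with 11.9, 36.7 and 41.5 CPM in LC and 12.8, 14.3 and 22.8 CPM in IP + LC. It did not pass (log2 fold change -0.97, edgeR adjusted p = 0.108) and was called lower without LC replicate 1 (log2 fold change -1.25, adjusted p = 0.00117). Leaving out any other tumor gave no call of Tgfb2 (edgeR adjusted p = 0.119 to 0.313). Inhba, the activin A subunit, had 0, 5 and 9 UMIs in LC and 15, 21 and 13 UMIs in IP + LC, or 0, 3.82 and 7.33 CPM and 10.7, 12.03 and 9.27 CPM. All IP + LC tumors lay above LC, but the test was not passed (log2 fold change 1.25, edgeR adjusted p = 0.117), and Inhba was called higher without LC replicate 1 (log2 fold change 0.94, adjusted p = 0.084) and without LC replicate 3 (log2 fold change 1.999, adjusted p = 0.0754). Inhbb, the activin B subunit, had 10.2, 9.17 and 8.15 CPM in LC and 4.99, 14.3 and 4.99 CPM in IP + LC, so the groups overlapped (edgeR adjusted p = 0.888).

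Of the 5 latency and activation genes, only Ltbp4 was called. Ltbp4 (chr7:27305136-27337692, - strand), a latent TGF-β binding protein of elastic fibers in the lung, had 141, 117 and 109 CPM in LC and 49.9, 27.5 and 30.7 CPM in IP + LC. It was 3.41-fold lower, with no overlap (log2 fold change -1.77 ± 0.26, edgeR adjusted p = 0.00226). Per 100 endothelial marker UMIs it stood at 4.81 ± 2.0 (SD, n = 3) in LC and 5.11 ± 1.6 in IP + LC, and the groups overlapped. Per 100 fibroblast marker UMIs it stood at 5.94 ± 1.4 in LC and 1.96 ± 0.62 in IP + LC, below LC in every IP + LC tumor. That divisor held collagen genes that rose, and the log2 fold change of Ltbp4 lay within the -2.28 to -0.82 of the 7 fibroblast markers called lower. Its relatives Ltbp1, Ltbp2 and Ltbp3, which tether latent TGF-β or bind matrix, and Thbs1, thrombospondin, an activator of latent TGF-β, had log2 fold changes from -0.19 to 0.75 and did not pass. For Ltbp1, the LC tumors had 25.5, 84.1 and 81.5 CPM and the IP + LC tumors 106, 112 and 119 CPM. All IP + LC tumors lay above LC (edgeR adjusted p = 0.15), and without LC replicate 1 the difference was smaller but called (log2 fold change 0.43, adjusted p = 0.0252). It was not called with any other tumor left out.

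The TGF-β receptor genes were not called, with unadjusted p of 0.163 or above. Tgfbr1, the type I kinase, had 49.2, 48.2 and 52.1 CPM in LC and 34.2, 45.8 and 50.6 CPM in IP + LC (log2 fold change -0.21, 95% confidence interval -0.70 to 0.28, edgeR adjusted p = 0.51). Tgfbr2, the type II kinase that binds the ligand, had 156, 139 and 159.7 CPM in LC and 109, 131 and 134 CPM in IP + LC. All IP + LC tumors lay below LC, by a small margin (log2 fold change -0.29, interval -0.73 to 0.14, edgeR adjusted p = 0.292). Tgfbr3, betaglycan, the coreceptor that presents ligand, had 23.8, 56.6 and 46.4 CPM in LC and 40.6, 36.1 and 32.1 CPM in IP + LC (log2 fold change -0.29, interval -0.95 to 0.36, edgeR adjusted p = 0.481). LC replicate 1 was the lowest of the 6 tumors for Tgfbr3, and without it Tgfbr3 was called lower (log2 fold change -0.52, adjusted p = 0.037). With any other tumor left out Tgfbr3 was not called (edgeR adjusted p = 0.548 to 0.941). For Tgfbr1, the interval leaves a fall of 0.70 and a rise of 0.28 on the log2 scale possible, so the data do not show that these receptors were equal in the groups.

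Neither receptor Smad of this arm passed. Smad2 was at 23.7 to 28.9 CPM in LC and 32.1 to 38.5 CPM in IP + LC (log2 fold change 0.43, edgeR adjusted p = 0.165). Without LC replicate 1 it was called higher (adjusted p = 0.0816), but not with any other tumor left out. Smad3 was at 19.6 to 20.4 CPM in LC and 7.85 to 17.8 CPM in IP + LC (log2 fold change -0.80, edgeR adjusted p = 0.124), and it was called lower without LC replicate 1 (adjusted p = 0.0793) and without IP + LC replicate 1 (adjusted p = 0.0551). For both Smads the groups did not overlap, in opposite directions. The shared Smads overlapped between the groups and were not called. Smad4, the common partner, was at 47.5 to 111 CPM in LC and 82.7 to 93.4 CPM in IP + LC (edgeR adjusted p = 0.774). Smad7, an inhibitory Smad, was at 27.2 to 92.9 and 37.1 to 62.8 CPM (edgeR adjusted p = 0.483). Without LC replicate 1 it was called lower (log2 fold change -0.69, adjusted p = 0.0124), but not with any other tumor left out.

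The activin antagonist and the targets of this arm moved in different directions. Fst (chr13:114452290-114458951, - strand), follistatin, which binds activin, had 5.09, 13.8 and 10.6 CPM in LC and 21.4, 35.0 and 22.1 CPM in IP + LC. The groups did not overlap (log2 fold change 1.29 ± 0.37, edgeR adjusted p = 0.0293), and the call was lost without IP + LC replicate 2 (adjusted p = 0.13) and after thinning to the smallest library (log2 fold change 1.18, adjusted p = 0.202). Tgfbi (chr13:56609523-56639562, + strand), a matrix protein named for its induction by TGF-β, had 139, 94.0 and 74.1 CPM in LC and 341, 436 and 323 CPM in IP + LC. It was 3.60-fold higher (log2 fold change 1.85 ± 0.27, edgeR adjusted p = 0.00204), and the IP + LC tumors stood above LC also per 100 fibroblast marker UMIs, at 19.99 ± 3.3 (SD, n = 3) against 5.02 ± 2.1. Ctgf (chr10:24595442-24598683, + strand), connective tissue growth factor, had 83.2, 94.0 and 122 CPM in LC and 49.2, 57.3 and 82.7 CPM in IP + LC. This TGF-β target fell (log2 fold change -0.69 ± 0.26, edgeR adjusted p = 0.0797), with IP + LC replicate 3 just below the lowest LC tumor. The Ctgf call was lost when LC replicate 2 (adjusted p = 0.154) or LC replicate 3 (adjusted p = 0.22) was left out, and likewise for IP + LC replicate 1 (adjusted p = 0.284) and replicate 2 (adjusted p = 0.267). It was also lost with scaling by library size alone (adjusted p = 0.147), with no filter on low counts (adjusted p = 0.182), in the DESeq2 test (adjusted p = 0.104) and after thinning to the smallest library (log2 fold change -0.34, adjusted p = 0.488). Of its exonic length, 23.2% is overlapped by the antisense gene Gm15270, which had at most 3 UMIs in a tumor. Skil, a Smad corepressor that TGF-β induces, was at 33.9 to 162 CPM in LC and 136 to 172 CPM in IP + LC and was not called (edgeR adjusted p = 0.436).

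**Figure D4:**
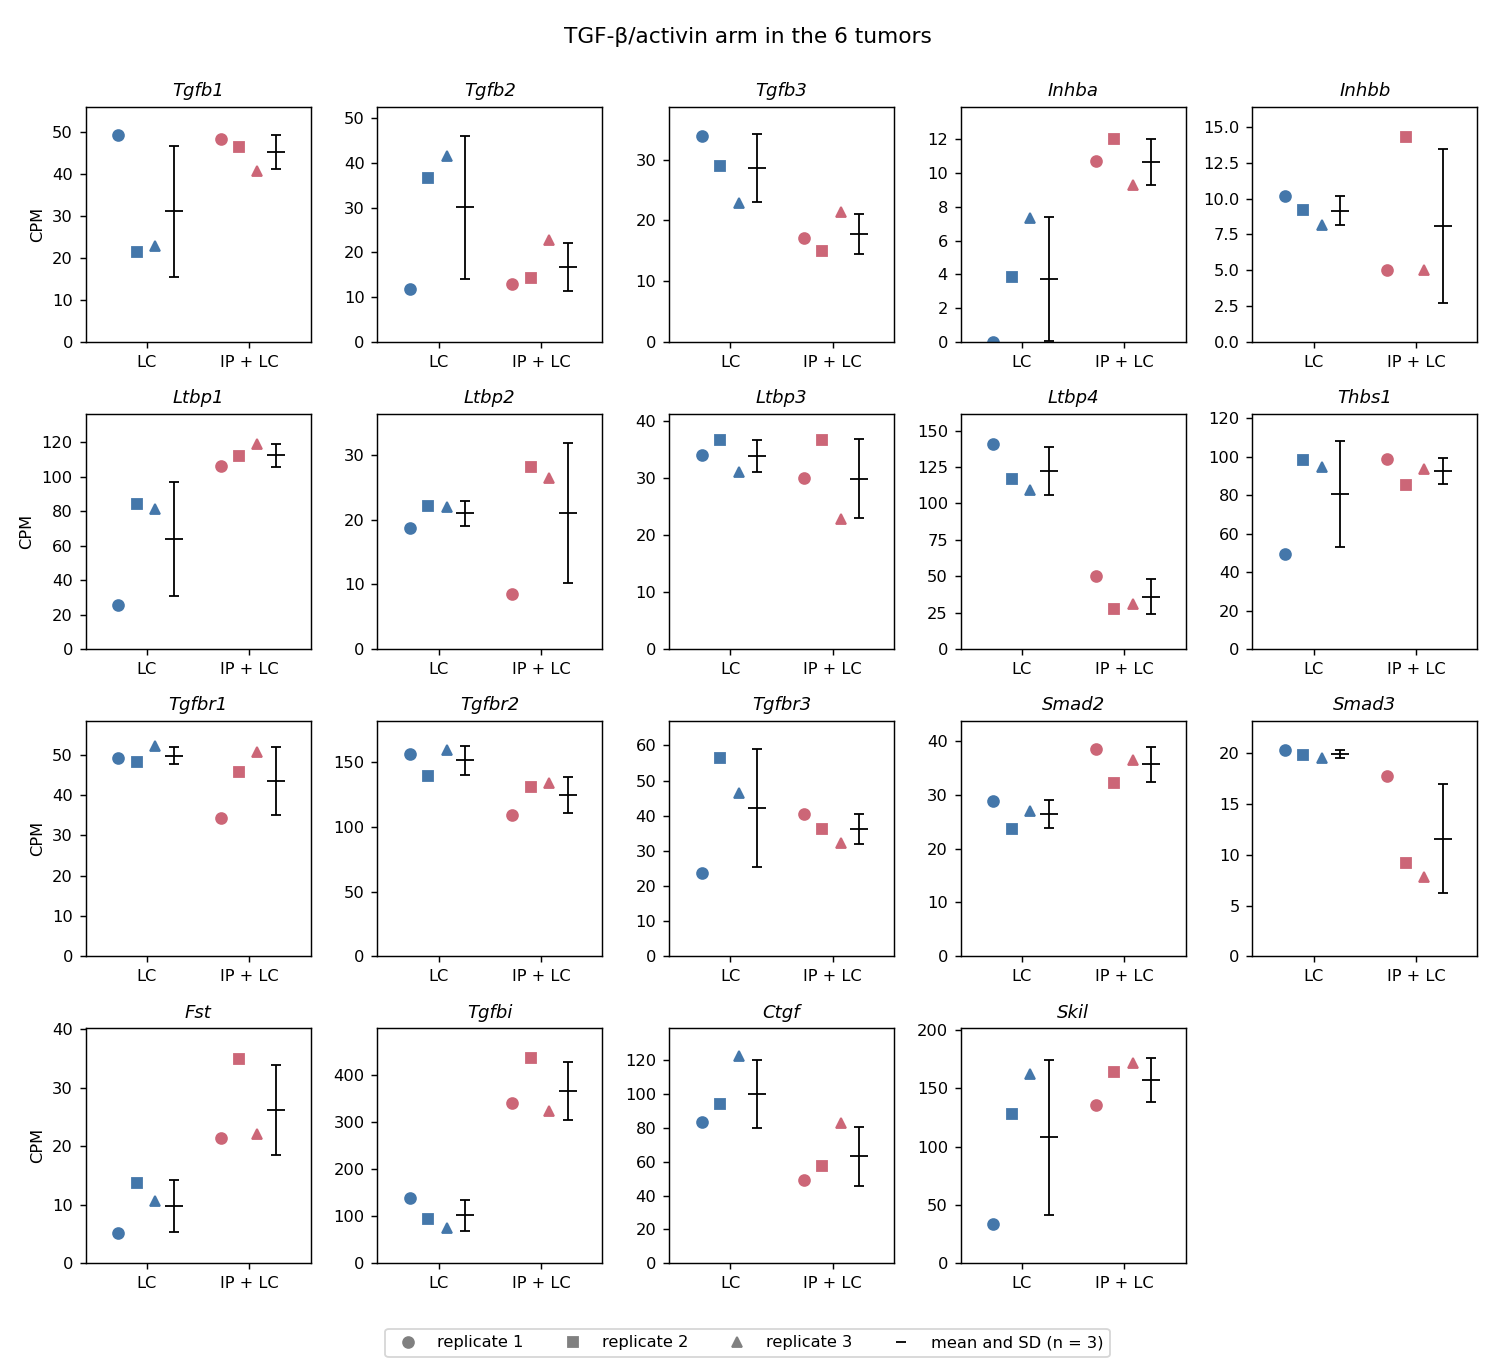
Level of the 19 measured genes of the TGF-β and activin arm (y axis, CPM, linear from 0) in the 3 LC (blue) and 3 IP + LC (red) tumors, with marker shape for the replicate and the mean and SD beside each group. Ltbp4 is lower and Tgfbi and Fst are higher in every IP + LC tumor, and LC replicate 1 (blue circle) lies apart from the other LC tumors for Tgfb1, Tgfb2, Ltbp1, Thbs1, Tgfbr3 and Skil, among others.

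The other genes of the pathway were taken from a list of 78 ligands, receptors, latency genes, antagonists, regulators and targets. Of these, 69 had a row and 38 were tested, and 5 were called higher and 12 lower, beside 16.8% and 19.6% of all tested genes. Among the 9 tested BMP genes, 6 were called lower and the others were not called, and among the 18 tested TGF-β and activin genes 4 were called higher and 3 lower. Of the 11 tested regulators of both arms, 1 was called higher and 3 lower. The largest decrease was that of Bambi, a pseudoreceptor that blunts signals of this family, with 27.2, 37.5 and 49.7 CPM in LC and 6.41, 9.17 and 7.13 CPM in IP + LC (log2 fold change -2.36 ± 0.32, edgeR adjusted p = 0.00151). Hey1, a Notch and BMP target of endothelial cells, followed with 28.9, 39.7 and 42.4 CPM in LC and 13.5, 6.30 and 4.99 CPM in IP + LC (log2 fold change -2.21 ± 0.37, edgeR adjusted p = 0.00353). Tagln, a smooth muscle actin-binding protein and TGF-β target, had 83.2, 102 and 66.0 CPM in LC and 29.2, 23.5 and 21.4 CPM in IP + LC (log2 fold change -1.77 ± 0.24, edgeR adjusted p = 0.00161). Of the exonic length of Tagln, 67.9% is overlapped by the antisense genes Gm48529 and Pcsk7, and Pcsk7 was not called (log2 fold change -0.38, edgeR adjusted p = 0.321). The groups did not overlap for Bambi, Hey1 or Tagln, and thinning all libraries to the smallest moved Tagln to a log2 fold change of -1.16 (adjusted p = 0.0706). The other genes called lower were the BMP antagonists Nbl1 and Twsg1, the ligand Bmp3, the coreceptor Rgma, the target Atoh8, the ubiquitin ligases Smurf2 and Nedd4l, the TGF-β presenting protein Lrrc32, and the TGF-β target Cdkn2b. Their log2 fold changes ran from -1.75 to -0.63, and for Bmp3 the groups overlapped, with LC replicate 1 at 8.48 CPM.

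Among the other genes called higher, Bhlhe40, a transcription factor that TGF-β can induce, had 25.5, 24.5 and 18.7 CPM in LC and 65.6, 71.6 and 51.4 CPM in IP + LC (log2 fold change 1.46 ± 0.24, edgeR adjusted p = 0.00312). Col1a1, a collagen chain and a TGF-β target that was also on the fibroblast marker list, had 81.5, 161 and 169 CPM in LC and 359.9, 432 and 330.2 CPM in IP + LC (log2 fold change 1.42 ± 0.29, edgeR adjusted p = 0.00844). Tgif1, a corepressor of Smad2 and Smad3, had 32.2, 34.4 and 21.2 CPM in LC and 64.1, 88.2 and 64.2 CPM in IP + LC (log2 fold change 1.30 ± 0.26, edgeR adjusted p = 0.00707). All IP + LC tumors stood above all LC tumors for these genes. Fn1, fibronectin, and Nrros, a latent TGF-β partner of macrophages, were also called higher, with log2 fold changes of 1.06 and 0.95. The calls of Bmp3, Lrrc32, Twsg1, Cdkn2b, Fn1 and Nrros were lost without IP + LC replicate 2 (adjusted p = 0.102 to 0.217). At least 1 of these calls was also lost when any other tumor except LC replicate 1 was left out, with adjusted p up to 0.267 for Lrrc32 without LC replicate 2. The Lrrc32 call was also lost with library size alone (adjusted p = 0.105), no filter (adjusted p = 0.125), DESeq2 (adjusted p = 0.126) and the replicate block (adjusted p = 0.124), and that of Smurf2 after thinning to the smallest library (log2 fold change -1.22, adjusted p = 0.124). Without LC replicate 1, 10 of these other genes were called higher, where 28.3% of all tested genes were. The number was 3 without LC replicate 2 and without IP + LC replicate 2, where the shares over all tested genes were 8.81% and 7.61%.

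**Figure D5:**
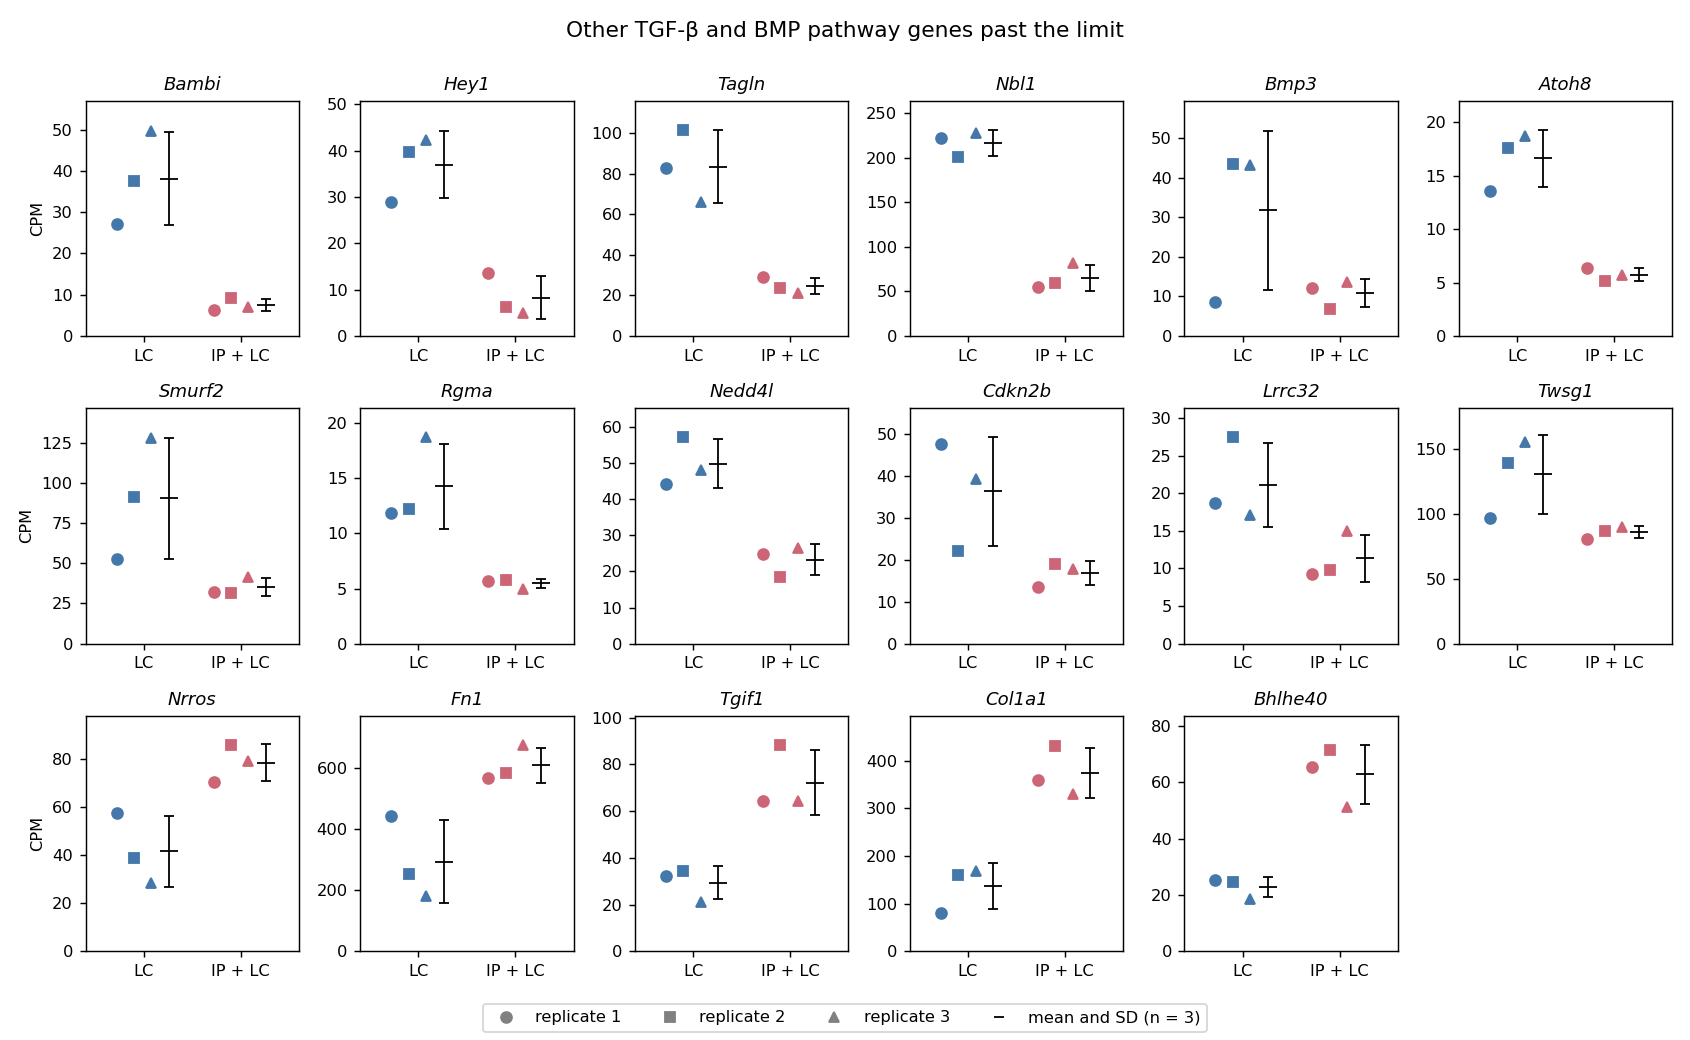
Level (y axis, CPM, linear from 0) of the 17 other pathway genes with an adjusted p below 0.1 in the 3 LC (blue) and 3 IP + LC (red) tumors, with marker shape for the replicate and the mean and SD beside each group. Bambi, Hey1 and Tagln are lower in every IP + LC tumor than in any LC tumor, Bhlhe40, Col1a1 and Tgif1 are higher, and the groups overlap for Bmp3.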

How the data were processed

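The authors made 3′ libraries from total RNA of tumor tissue by bulk RNA barcoding, extracted UMIs with UMI-tools 1.1.1, trimmed with Trim Galore 0.6.7, aligned to GRCm38 with HISAT2 2.2.1, assigned reads with featureCounts 2.0.1 and counted distinct UMIs per gene. The deposited values are these raw counts, in 1 table per tumor. Because reads come from the 3′ end, levels were not compared between genes. Depth ran from 592733 to 1631066 UMIs.

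Here edgeR 4.0.16 (R 4.3.3) fitted all genes kept by filterByExpr (minimum count 10, in 3 libraries) with TMM scaling, the quasi-likelihood test, group alone and no block, with Benjamini-Hochberg adjustment and a limit of 0.1. The 38 members, the other pathway genes and the marker lists were chosen with earlier results of these data known. Values in every tumor are given for members past the limit and for tested ligands and receptors, and of the other pathway genes for the 3 largest changes each way. An item of the pathway list is not reported here. Ltbp1 was added to those given per tumor after its values were seen. Marker sums and ratios have no test. Coordinates came from GENCODE M21 and near-identical copies (at least 81 nucleotides, 95% identity) from blastn 2.17.0+. The procedure was tested on simulated data. Alternatives were other scalings, filters and tests (DESeq2 1.42.0, limma 3.58.1), a replicate block, thinning (1 random draw), a limit of 0.05 and each tumor left out.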

Additional observations from a re-analysis of the deposited data

How the results depend on the processing

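Of the 16 calls among the members, 11 held under every alternative that gave a value (Ltbp4, Tgfbi, Bmp6, Bmpr2, Acvrl1, Eng, Grem1, Fstl1, Smad6, Id1 and Id3), and no called member turned direction. Of 550 comparisons of a member with an alternative, 476 kept their side of the limit, 30 lost it, 31 gained it and 13 turned direction. The number of members called higher, 4, became 8 with library size only, 7 with no filter, 8 with limma voom and between 3 and 8 with a tumor left out. The share of all tested genes called higher moved too, from 16.8% to 22.4%, 7.87%, 28.3% and 7.61% to 28.3% in these settings. The number called lower, 12, ran from 9 to 17 with a tumor left out, where the share of all tested genes ran from 11.6% to 28.7%. The TGF-β and activin arm's median of -0.11 became 0.052 with library size only, -0.014 with no filter, -0.27 after thinning to 592733 UMIs and -0.25 to 0.13 with a tumor left out, so its sign rests on the processing. The median of all tested genes moved too, to 0.18 with library size only and -0.29 with no filter. Beside the same shares, other pathway genes called higher, 5, became 11 with library size only, 9 with no filter, 10 with limma voom and 3 to 10 with a tumor left out, and those called lower, 12, became 7 with at least 10 UMIs in every library and 5 after thinning (21% and 10.8% of all tested genes). Library size only moved the median of all genes by 0.16 and the share of calls that were higher from 46.1% to 58.3%. Thinning, which leaves fewer UMIs and fewer tested genes, also ended the calls of Bmp4 (log2 fold change -0.93, adjusted p = 0.212) and Fst (0.202) and lowered Grem1 from 2.56 to 1.46, below Tgfbi at 1.72. Elsewhere the cause was not tested.

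No pairing by replicate number was seen. Deviations of same-numbered tumors correlated by 0.03, -0.12 and 0.11 across genes, and not every tumor correlated best with its own number. With 3 tumors per group this check cannot exclude a pairing. With the replicate block 14 of the 16 calls held, all but those of Tgfb3 and Bmpr1a. Summed markers of fibroblasts moved from -0.19 to -0.036 (log2 of the ratio of means) with library size only. With a tumor left out, which was chosen after seeing the data, macrophages ran from 0.68 to 1.64 and proliferation from 1.74 to 3.25.

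Members that turned direction were never called. With library size only, Inhbb was at 0.052 and Ltbp2 at 0.15, and with no filter Ltbp2 was at 0.097. With limma voom, Thbs1 was at -0.04 and Smad4 at -0.11, and after thinning Smad5 was at -0.091. With a tumor left out, Inhbb ran from -0.83 to 0.15, Ltbp2 from -0.27 to 0.37, Thbs1 from -0.073 to 0.31 and Smad4 from -0.11 to 0.43.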
